A study of Mus musculus with 6 samples.

Results

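The 10 genes described here encode the neurofilament subunits, 2 related neuronal intermediate filament proteins and 5 tubulins that are prominent in neurons: Nefl, Nefm, Nefh, Prph, Ina, Tubb3, Tubb2a, Tubb2b, Tuba1a and Tuba1b. They were taken by name from the deposited table, and all 10 were among the 16415 genes listed and among the 16387 that could be tested. The tissue was mouse trigeminal ganglion, the sensory ganglion of the face and head, measured by messenger RNA sequencing in 6 libraries. All 6 carry a wild-type genotype, and the treatment label is NC-up for 3 of them and SETDB2-up for the other 3. The labels do not spell out either treatment, say how it was given or state the animals' age, and nothing in them says that the libraries came from separate animals, so the tests below measure the spread between these libraries only.

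Neurofilaments are the rope-like intermediate filaments of the axon. Nefl, the light subunit, forms the core with Nefm and Nefh, whose long tails project sideways and space neighbouring filaments; together they fill large myelinated axons and set their calibre. Prph (peripherin) is the intermediate filament protein typical of small-diameter sensory neurons, and Ina (alpha-internexin) is used mainly in the central nervous system. Microtubules, the tracks for axonal transport, are polymers of alpha- and beta-tubulin pairs: Tubb3 is the beta-tubulin most specific to neurons, whereas Tubb2a, Tubb2b, Tuba1a and Tuba1b are abundant in neurons and also made by other cells. The unstructured carboxy-terminal tails of tubulins, where isotypes differ most, carry the modifications read by motors and associated proteins.

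The alpha-tubulin pair and the Tubb2 pair are near copies of each other, and this bears on every value given for them. Over the last 60 coding bases, stop codon included, Tubb2a and Tubb2b differ at 3 positions, whereas Tubb3 ends in a tail of its own. The reference sequences (GRCm38, GENCODE M21) are shown 5′ to 3′ on the coding strand, with capitals at the bases that differ from the paired gene, because they show how little separates a pair whose levels are compared below.
Tubb2a, chr13:34074468-34074527, minus strand: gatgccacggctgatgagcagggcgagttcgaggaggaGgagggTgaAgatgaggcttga
Tubb2b, chr13:34127471-34127530, minus strand: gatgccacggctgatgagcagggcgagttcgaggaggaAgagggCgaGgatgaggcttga
Tubb3, chr8:123421623-123421682, plus strand, with no paired gene and so no capitals: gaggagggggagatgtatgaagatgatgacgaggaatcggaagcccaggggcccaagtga
Over the whole coding sequence Tuba1a and Tuba1b were 98.3% identical and Tubb2a and Tubb2b 96.5%, against 83.5% for Tubb2a with Tubb3. Of the 150-base windows of each transcript, the length of 1 sequenced read, 54.7% of those of Tuba1a and 57.9% of those of Tuba1b occurred exactly in another gene or pseudogene, as did 27.9% for Tubb2a and 20.1% for Tubb2b. The sources used here do not say how the authors' counting assigned such reads, so the split within each pair is uncertain. The other 6 genes had no such shared window, and the neurofilament genes are far from one another (Nefl and Nefm 43.7% identical, Nefl and Nefh 34.5%).

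The genes lie in 3 clusters and 3 single loci (coordinates as in the deposited table, GRCm38). Nefl (gene 18039, chr14:68083863-68089095, plus strand) and Nefm (gene 18040, chr14:68119545-68125004, minus strand) are 30450 bp apart. Tuba1b (gene 22143, chr15:98931429-98934390) and Tuba1a (gene 22142, chr15:98949847-98953501), both on the minus strand, are 15457 bp apart, and Prph (gene 19132, chr15:99053579-99058978, plus strand) follows 100078 bp from Tuba1a. Tubb2a (gene 22151, chr13:34074278-34078008) and Tubb2b (gene 73710, chr13:34127008-34130354) share the minus strand of chromosome 13. Nefh (gene 380684, chr11:4938754-4948064, minus strand), Ina (gene 226180, chr19:47014681-47025327, plus strand) and Tubb3 (gene 22152, chr8:123411553-123422015, plus strand) stand alone.

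Together the 10 genes took 2.11% to 2.18% of the reads of each library, whose recovered totals ran from 19334997 to 23501386. Nefl held the 2nd highest mean value of all listed genes, Nefm the 5th, Nefh the 6th, Tubb3 the 19th, Tuba1a the 37th and Prph the 44th, so that counting error is small beside the spread between libraries for these genes. Ina, at rank 7291, was the exception, with 464 to 667 reads per library. To compare levels between genes, reads were divided by transcript length and by the library's total (reads per kilobase of transcript, scaled to equal library totals, RPKM). On that scale the NC-up means were 1790 ± 34.9 for Nefl, 1357 ± 29.2 for Nefm, 1151 ± 29.6 for Tubb3 and 995 ± 17.0 for Nefh (SD, n = 3). They were 892 ± 48.0 for Tuba1a, 823 ± 22.5 for Prph, 435 ± 24.5 for Tuba1b, 320 ± 8.38 for Tubb2a, 91.1 ± 3.75 for Tubb2b and 8.41 ± 0.344 for Ina (SD, n = 3). In NC-up each gene's 3 levels lay above those of the next gene in this order, except that Tuba1a and Prph overlapped. In SETDB2-up, Nefm overlapped with Tubb3, Tuba1a with Nefh and Nefh with Prph, and the mean of Tuba1a (957 ± 26.5) stood above that of Nefh (936 ± 83.1; SD, n = 3).

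The markers of the labelled tissue were present. The 17 pan-neuronal genes summed to 8364 to 8633 CPM (reads scaled to equal library totals) in NC-up and to 8229 to 8528 in SETDB2-up, and the 11 myelinating Schwann cell genes to 15569 to 16399 and to 14013 to 15683. SETDB2-up libraries 1 and 2 also held transcripts of liver genes: Alb, the albumin gene, was at 0 in all 3 NC-up libraries, whereas SETDB2-up libraries 1, 2 and 3 had values of 1673, 3769 and 11.6, with Apoa1, Fga, Fgb and Serpina1d likewise at 0 in NC-up. The 8 skeletal muscle markers summed to 95.7 to 102 CPM in NC-up and to 43.1 to 48.3 in SETDB2-up. Fold changes across all genes followed transcript GC content: in the decile of genes with the lowest GC, 433 were called higher and 14 lower in SETDB2-up, and in the decile with the highest, 3 higher and 554 lower. Both settings, leaving out SETDB2-up libraries 1 and 2 and correcting each library for GC content, are given below where they end a call or turn a direction; the former leaves a single SETDB2-up library.

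The comparison asks whether the cytoskeletal genes of these neurons differ between NC-up and SETDB2-up ganglia. Of the 10 genes, 1 passed the test: Tuba1b, which rose 1.16-fold. None fell (limma; 0 of 10 also at an unadjusted p under 0.05, and 0 by edgeR and DESeq2). Across all genes tested, 16.4% were called in either direction, 7.71% higher and 8.71% lower, so 1 of 10 is near the background. The median log2 fold change (SETDB2-up over NC-up, on normalised reads plus 1) was -0.08 over the 10 genes and 0.00 over all genes. In 3 of the 10 the groups did not overlap (Nefl, Tuba1a and Tuba1b), against 33.3% of all genes tested. The sum of the 10 genes was 442561 ± 11751 normalised reads in NC-up and 445194 ± 8671 in SETDB2-up (SD, n = 3; exact two-sided permutation p = 0.8).

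**Figure D1:**
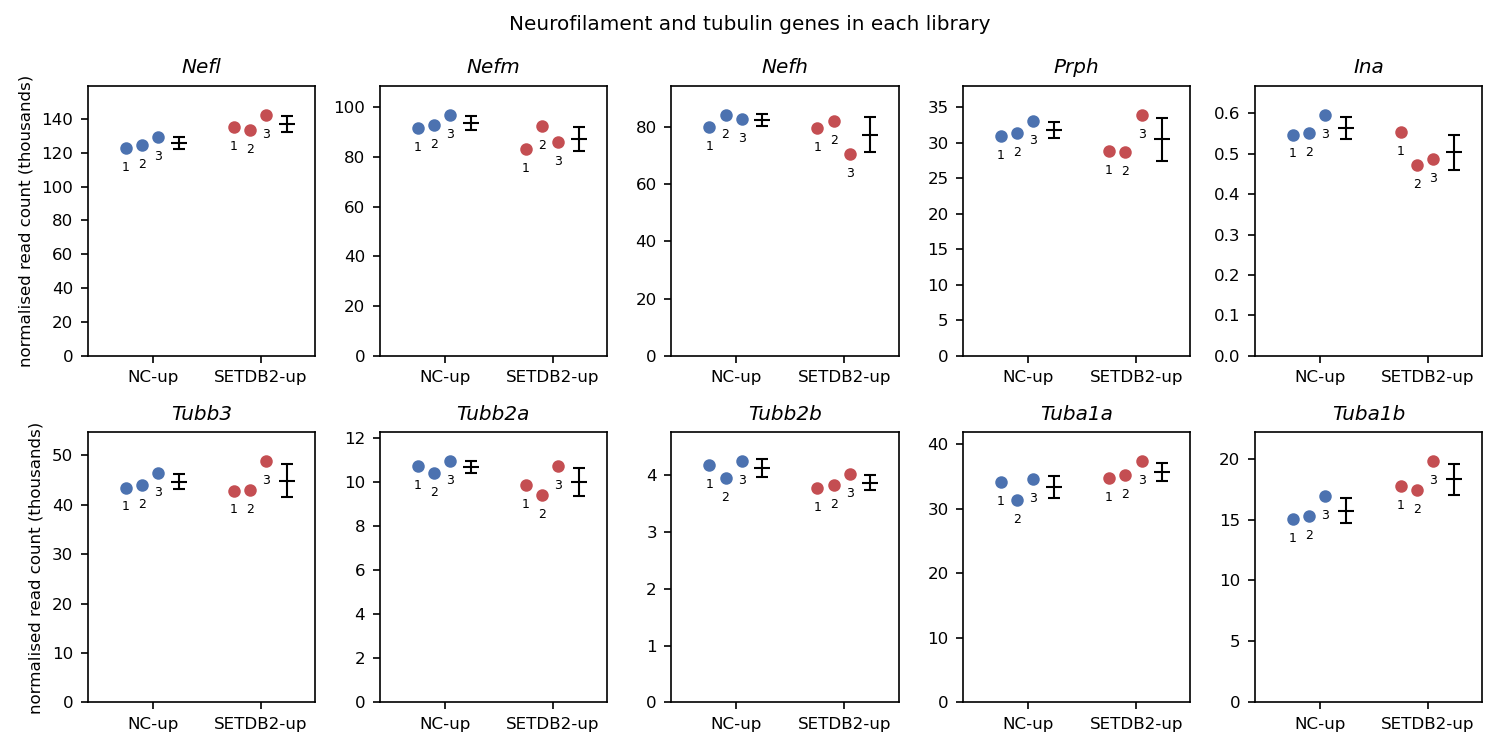
Normalised read counts of each of the 10 genes in every library, numbered 1 to 3 within a group (blue, NC-up; red, SETDB2-up), with the mean and SD of the 3 libraries drawn to the right of the points; each vertical axis starts at 0. The SETDB2-up points lie above all NC-up points for Nefl, Tuba1a and Tuba1b and overlap them for the other 7 genes.

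Nefl, the light subunit, had normalised read counts of 122621, 124450 and 129384 in NC-up libraries 1 to 3 and of 135261, 133088 and 142258 in SETDB2-up libraries 1 to 3. All 3 SETDB2-up libraries were above all 3 NC-up libraries. The means were 125485 ± 3498 and 136869 ± 4792 (SD, n = 3), and the log2 fold change was 0.13 ± 0.06 (SE; 95% interval -0.00050 to 0.25), which missed the threshold (adjusted p = 0.165 by limma). Over 18 alternative analyses Nefl was called in 3: DESeq2 (adjusted p = 0.0465), centring on pan-neuronal genes (adjusted p = 0.0456 by limma) and a fit with library numbers as blocks (adjusted p = 0.0133 by limma), which called 22.1% of all genes.

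Nefm, the medium subunit, read 91551, 92906 and 96936 in NC-up against 83046, 92400 and 85980 in SETDB2-up. SETDB2-up libraries 1 and 3 were below the NC-up range and library 2 was within it. The log2 fold change was -0.11 ± 0.06 (SE; 95% interval -0.23 to 0.02; adjusted p = 0.245 by limma). It was called in 1 of 18 alternatives, the fit with library numbers as blocks (adjusted p = 0.0476 by limma). A long non-coding RNA, A230070E04Rik, overlaps Nefm on the opposite strand, where Nefm had 2.76 times its reads. The libraries are strand-specific per the labels' protocols, but the sources used here do not give the strand setting of the authors' counting. A230070E04Rik itself gave a log2 fold change of -0.04 (adjusted p = 0.746 by limma), and the sum of both genes gave -0.09 (exact permutation p = 0.2).

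Nefh, the heavy subunit, read 80156, 84252 and 82840 in NC-up against 79609, 82161 and 70418 in SETDB2-up. Library 3 of SETDB2-up was the lowest of the 6 and set most of the difference between the means, 82416 ± 2080 and 77396 ± 6177 (SD, n = 3). The log2 fold change was -0.09 ± 0.06 (SE; 95% interval -0.23 to 0.04; adjusted p = 0.348 by limma). It was -0.03 without SETDB2-up library 3, -0.23 with that library as the only one of its group (adjusted p = 0.0524 by limma) and 0.09 after the GC correction (adjusted p = 0.528 by limma). Ap1b1, a clathrin adaptor subunit gene that overlaps Nefh on the opposite strand with fewer reads (Nefh had 6.47 times as many), fell by 0.34 on the log2 scale (adjusted p = 0.000447 by limma). Nefh and Ap1b1 summed gave a log2 difference of -0.13 (exact permutation p = 0.2). The 3 subunits summed gave 301699 ± 7416 normalised reads in NC-up and 301407 ± 5418 in SETDB2-up (SD, n = 3; exact permutation p = 1.0).

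The sum of the 3 subunits thus differed by less than the spread between libraries. The shares of Nefl and Nefm in the family, in contrast, did not overlap between the groups. Values of 33.3% of all genes tested did not overlap either, and the shares were not corrected for GC content. Within the filament genes (Nefl, Nefm, Nefh, Prph and Ina, each per transcript length), Nefl made up 36.1%, 35.8% and 36.1% in NC-up libraries 1 to 3 and 39.8%, 38.2% and 40.5% in SETDB2-up libraries 1 to 3. The means were 36.0% ± 0.154 and 39.5% ± 1.21 (SD, n = 3), without overlap. Nefm made up 27.3% ± 0.157 and 25.5% ± 1.19, again without overlap. For both, the exact permutation p was 0.1, the smallest that 3 against 3 libraries allow, and 0.225 adjusted over the 18 shares tested. The shares of Nefh (20.0% and 18.9%), Prph (16.5% and 16.0%) and Ina (0.169% and 0.152%) overlapped between the groups.

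The same contrast appears in the ratio of Nefl to Nefm reads, 1.34, 1.34 and 1.33 in NC-up against 1.63, 1.44 and 1.65 in SETDB2-up (log2 difference 0.23). The NC-up ratios were nearly the same in all 3 libraries, and the SETDB2-up ratios were all higher and more spread. The ratio of Nefl to Nefh was 1.53, 1.48 and 1.56 against 1.70, 1.62 and 2.02 (log2 difference 0.22), and that of Nefm to Nefh did not separate the groups (-0.01; exact permutation p = 0.9). These are among 6 ratios chosen after the values were seen, each with an exact p of at least 0.1 (0.15 or more adjusted over the 6). The transcripts differ in GC content (Nefl 48.8%, Nefm 53.4%, Nefh 58.4%), and after the GC correction the Nefl to Nefm difference was 0.12 and the Nefl to Nefh difference was -0.02, both with overlapping groups.

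**Figure D2:**
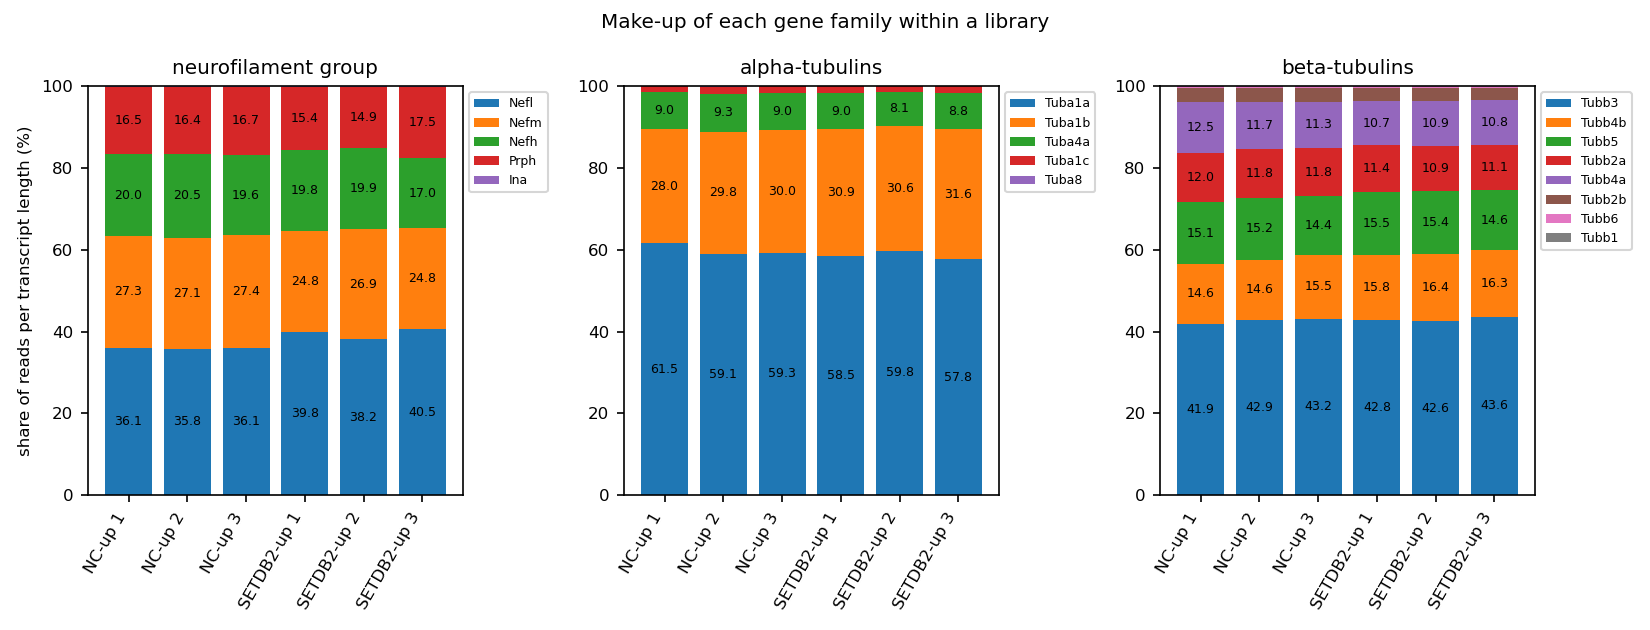
Make-up of 3 gene families in each library, as a percentage of the family's reads per transcript length (stacked bars; left, neurofilament group; middle, alpha-tubulins; right, beta-tubulins; values over 6% are printed). Nefl is at 36.1%, 35.8% and 36.1% in NC-up and at 39.8%, 38.2% and 40.5% in SETDB2-up; Tuba1b is at 28.0%, 29.8% and 30.0% and at 30.9%, 30.6% and 31.6%.

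Peripherin (Prph) read 30940, 31375 and 33070 in NC-up against 28858, 28664 and 33925 in SETDB2-up. Libraries 1 and 2 of SETDB2-up were the lowest of the 6 and library 3 the highest, so the groups overlapped fully. The log2 fold change was -0.06 ± 0.06 (SE; 95% interval -0.20 to 0.07; adjusted p = 0.537 by limma), and without SETDB2-up libraries 1 and 2, which hold the liver transcripts, it was 0.09 (adjusted p = 0.556 by limma).

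Alpha-internexin (Ina) was the least abundant of the 10, with values of 548, 551 and 596 in NC-up against 553, 472 and 487 in SETDB2-up. The library 1 value of SETDB2-up fell within the NC-up range. Its log2 fold change of -0.17 ± 0.09 (SE; 95% interval -0.36 to 0.03; adjusted p = 0.232 by limma) was the lowest of the 10 and did not pass the test in any of 18 alternatives. Nt5c2, a cytosolic nucleotidase gene, overlaps Ina on the opposite strand, and Ina had 0.568 times its reads; Nt5c2 itself did not pass the test (log2 fold change -0.06, adjusted p = 0.642 by limma).

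Among the beta-tubulins, Tubb3 had the smallest fold change of the 10 genes. It read 43468, 44026 and 46302 in NC-up against 42850, 42952 and 48743 in SETDB2-up, and the single high value in SETDB2-up library 3 offset the lower ones of libraries 1 and 2. The log2 fold change was 0.01 ± 0.06 (SE; 95% interval -0.12 to 0.13; adjusted p = 0.961 by limma). Its share of all beta-tubulin reads per length was 42.7% ± 0.663 and 43.0% ± 0.546 (SD, n = 3; exact permutation p = 0.6).

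Tubb2a, a beta-tubulin of mature neurons, read 10727, 10413 and 10948 in NC-up against 9870, 9438 and 10728 in SETDB2-up. Libraries 1 and 2 of SETDB2-up were below the NC-up range. The log2 fold change was -0.10 ± 0.06 (SE; adjusted p = 0.265 by limma), and -0.15 without SETDB2-up library 3 (adjusted p = 0.0470 by limma), the only alternative of 18 that called it. Tubb2b, its neighbour, which is prominent in developing neurons, read 4181, 3942 and 4242 against 3766, 3823 and 4016. Its SETDB2-up library 3 was the only one inside the NC-up range, and its log2 fold change of -0.09 ± 0.06 (SE; adjusted p = 0.297 by limma) was close to that of Tubb2a.

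Summed, the Tubb2 pair gave 14818 ± 425 and 13880 ± 771 normalised reads (SD, n = 3; log2 difference -0.10; exact permutation p = 0.2), a value that does not depend on how reads were split between these 2 genes. As a share of beta-tubulin, Tubb2a was 11.9% and 11.1% and Tubb2b 3.38% and 3.18%, both without overlap. Tubb4b (14.9% and 16.2%) and Tubb4a (11.8% and 10.8%) did not overlap either. For each of these shares the exact permutation p was 0.1 (0.225 adjusted over 18 shares). All beta-tubulins summed differed by -0.01 on the log2 scale (exact permutation p = 1.0).

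Among the alpha-tubulins, Tuba1b rose. It read 15004, 15296 and 16891 in NC-up against 17765, 17386 and 19764 in SETDB2-up. Every SETDB2-up library was above every NC-up library, and library 3 was the highest in each group. The means were 15730 ± 1015 and 18305 ± 1278 (SD, n = 3), and the log2 fold change was 0.22 ± 0.06 (SE; 95% interval 0.09 to 0.35; adjusted p = 0.0212 by limma; edgeR adjusted p = 0.0210). Leaving out NC-up library 1 ended the call (0.19, adjusted p = 0.0936 by limma) as did leaving out NC-up library 2 (0.20, adjusted p = 0.111); it held in the other 16 of 18 alternatives, over all of which the adjusted p ran from 1.26e-07 to 0.111. It was 0.33 after the GC correction (adjusted p = 0.00232 by limma) and 0.33 without SETDB2-up libraries 1 and 2 (adjusted p = 0.0147 by limma), a fit in which the single SETDB2-up library left is assumed to vary like the NC-up ones.

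Tuba1a, the alpha-tubulin most abundant in these libraries, read 34089, 31409 and 34568 in NC-up against 34768, 35175 and 37356 in SETDB2-up. The groups did not overlap, although the nearest libraries (34568 and 34768) were close. The log2 fold change was 0.10 ± 0.06 (SE; 95% interval -0.02 to 0.22; adjusted p = 0.249 by limma). Summing Tuba1a, Tuba1b and Tuba1c, a set that does not depend on how reads were split among its members, gave 50062 ± 2416 and 55132 ± 2761 normalised reads (SD, n = 3), a log2 difference of 0.14 without overlap (exact permutation p = 0.1, and 0.32 adjusted over the 8 sums tested). The ratio of Tuba1b to Tuba1a was 0.440, 0.487 and 0.489 in NC-up against 0.511, 0.494 and 0.529 in SETDB2-up, also without overlap (log2 difference 0.12, and 0.17 after the GC correction; exact permutation p = 0.1 for both).

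Both Tuba1a and Tuba1b are made by glia and other cells of the ganglion, and in bulk tissue fewer cells of a type and less RNA per cell cannot be told apart. The levels were therefore also set against the mean log2 value of the 17 pan-neuronal genes, which differed by -0.02 between the groups. On that scale the difference was 0.24 for Tuba1b, 0.15 for Nefl and 0.12 for Tuba1a, each without overlap (exact permutation p = 0.1; 0.333 adjusted over 10). It was -0.09 for Nefm, -0.07 for Nefh, -0.04 for Prph, -0.14 for Ina, 0.03 for Tubb3, -0.08 for Tubb2a and -0.07 for Tubb2b, each with overlap. The pan-neuronal genes were not uniform themselves: 3 of the 17 rose and 4 fell, against 7.71% higher and 8.71% lower over all genes tested. Among them were Elavl2, an RNA-binding protein gene (log2 fold change 0.37 ± 0.07 SE, adjusted p = 0.00134 by limma), and Rbfox3, which encodes the antigen NeuN (-0.38 ± 0.06 SE, adjusted p = 0.000375 by limma). After the GC correction 1 of the 17 was higher and 2 lower, against 257 and 519 of 15513 genes. Neither Elavl2 (0.13, adjusted p = 0.253 by limma) nor Rbfox3 (-0.19, adjusted p = 0.0509) passed. Those that did included Map2 (0.24, adjusted p = 0.0417 by limma) and Pou4f1 (-0.32, adjusted p = 0.00477 by limma). Before the correction Pou4f1 was at -0.28 (adjusted p = 0.00483 by limma). Elavl2 was also lost without SETDB2-up libraries 1 and 2 (0.27, adjusted p = 0.127 by limma).

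Markers of the neurons that use these filaments moved in both directions. Over all genes tested 7.71% were called higher and 8.71% lower, the background for each marker list here before any correction. Of 14 genes of large-diameter, neurofilament-rich neurons, 5 rose and 1 fell (median log2 fold change 0.07), led by Spp1, which encodes osteopontin (0.45 ± 0.07 SE, adjusted p = 0.000193 by limma), and Maf, a transcription factor of touch neurons (-0.40 ± 0.06 SE, adjusted p = 0.000237 by limma). Of 19 genes of nociceptors and C-fibres, the small neurons in which peripherin is typical, 3 rose and 0 fell (median 0.06): Tac1, the substance P precursor (0.37 ± 0.06 SE), Trpa1, an irritant channel (0.29 ± 0.08 SE), and Calca, the precursor of CGRP (0.26 ± 0.05 SE). The Trpa1 call was lost without NC-up library 2 (0.27), SETDB2-up library 1 (0.25) or 2 (0.27) or both of the latter (0.16, adjusted p = 0.594 by limma), and after the GC correction (0.12, adjusted p = 0.373 by limma). Of 11 myelinating Schwann cell genes 0 rose and 3 fell (median -0.07). With GC content corrected, the large-diameter list held 2 higher and 1 lower, the nociceptor list 2 higher and 0 lower, and the Schwann cell list 0 of either (limma; median 0.03). In that fit 257 of 15513 genes were called higher and 519 lower. Among markers of other cells, 1 of 11 satellite glia genes rose and 1 fell, 1 of 10 fibroblast genes rose and 5 fell, 1 of 11 endothelial and mural genes rose and 2 fell, and 1 of 9 macrophage genes rose and 0 fell. In the lists that mark tissue outside the ganglion, 4 of 8 muscle genes, 5 of 7 keratinocyte genes and 1 of 8 blood genes fell, and 9 of 10 liver genes rose. The part of these shifts in the values of the filament and tubulin genes was not tested, beyond the values given without SETDB2-up libraries 1 and 2.

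The GC content of the 10 transcripts ran from 48.8% (Nefl) to 60.8% (Prph). Genes within 2 percentage points of the GC content of Tuba1b (55.2%) had a median log2 fold change of -0.09, and 94.1% of those 3193 genes were below Tuba1b. Tubb3 (57.9% GC), at 0.01, stood above a median of -0.15 for genes of like GC, and Prph, at -0.06, stood above a median of -0.23. Nefl was close to the median of its neighbours in GC (0.13 against 0.06), as was Nefm (-0.11 against -0.05). After the GC correction the log2 fold changes were 0.33 for Tuba1b, 0.18 for Prph, 0.18 for Tubb3, 0.16 for Tuba1a, 0.09 for Nefh, 0.07 for Nefl, 0.01 for Tubb2a, -0.04 for Nefm, -0.05 for Ina and -0.09 for Tubb2b. Again Tuba1b alone passed the test, in a table where 5.0% of 15513 genes did (limma), while Nefh, Prph and Tubb2a changed sign.

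**Figure D3:**
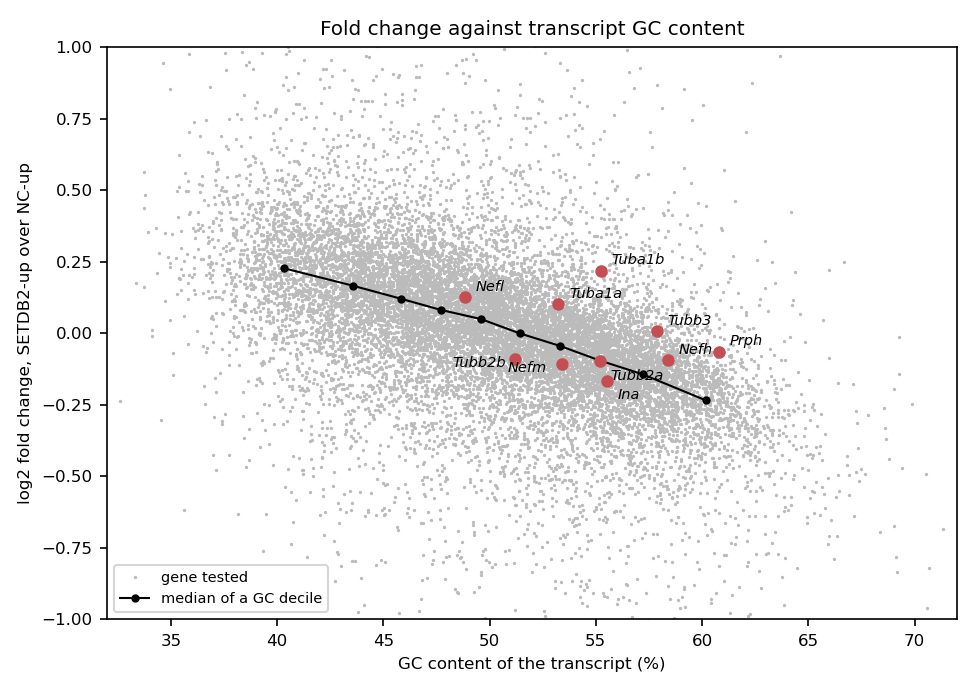
Log2 fold change (SETDB2-up over NC-up) against the GC content of the transcript in percent, for 15513 genes (grey points, of which 213 lie outside the axes), with the median of each GC decile (black) and the 10 filament and tubulin genes (red). The black line runs from 0.23 to -0.24, and Tuba1b, at 0.22, stands above it.

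**Figure D4:**
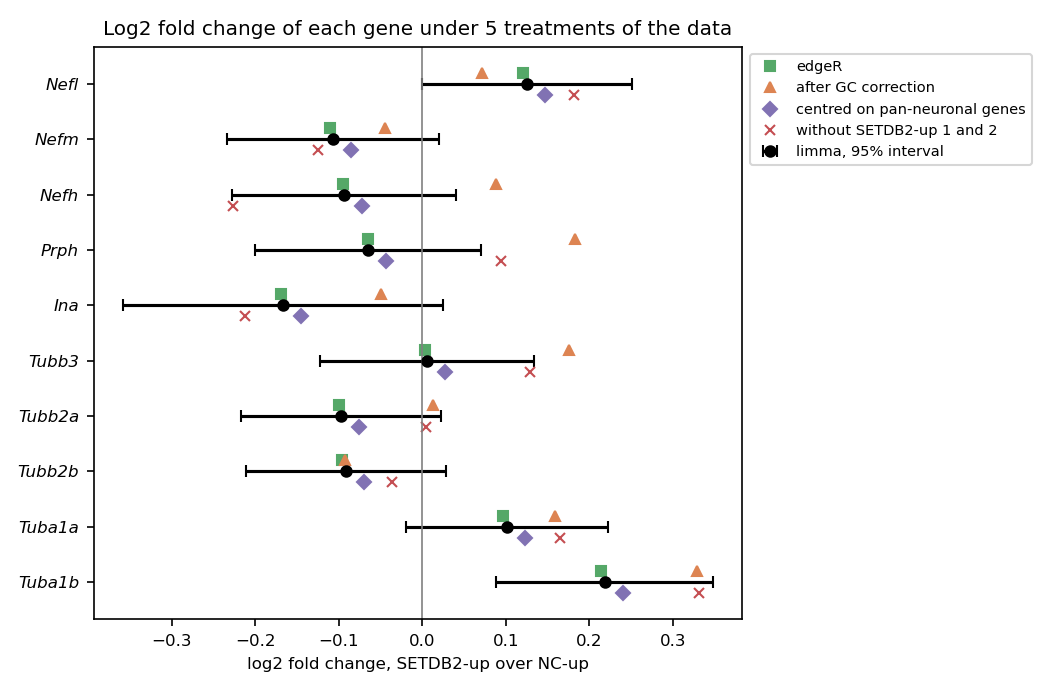
Log2 fold change (SETDB2-up over NC-up) of the 10 genes by limma with its 95% interval (black), and by edgeR (squares), after GC correction (triangles), centred on pan-neuronal genes (diamonds) and without SETDB2-up libraries 1 and 2 (crosses). The interval of Tuba1b lies wholly above 0 (0.09 to 0.35), and the GC-corrected points of Nefh, Prph and Tubb2a fall on the other side of 0 from the black ones.

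The genes that build, link, modify and cut these polymers were counted by list. Of the 133 tested, 16 rose and 14 fell, against 7.71% and 8.71% over all genes. These shares are the background for each list below before any correction. With GC content corrected, 6 were called higher and 3 lower, against 257 and 519 of 15513 genes. With SETDB2-up library 1 left out 6 and 7 were called, against 414 and 668 of 16387 genes. Of 10 other intermediate filament genes 0 rose and 1 fell (median log2 fold change -0.15): Lmna, which encodes nuclear lamins A and C, at 3634, 4025 and 3797 against 2936, 3098 and 3404 (-0.28 ± 0.06 SE, adjusted p = 0.00603 by limma). The Lmna call was lost without SETDB2-up library 1 (-0.23, adjusted p = 0.0531 by limma), without libraries 1 and 2 (-0.16, adjusted p = 0.350) and after the GC correction (-0.08, adjusted p = 0.486). Synm, the filament partner synemin, did not pass (0.05, adjusted p = 0.557 by limma).

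Of 14 genes for filament linkers, transport and turnover, 3 rose and 0 fell (median 0.12). Dst, the dystonin linker that ties intermediate filaments to other cytoskeletal elements in sensory neurons, read 49369, 52895 and 49802 against 61694, 63984 and 54115. Its log2 fold change was 0.24 ± 0.06 (SE, adjusted p = 0.0166 by limma), a call lost when any 1 of 5 libraries was left out (all but SETDB2-up library 3; adjusted p 0.0510 to 0.0906). It was also lost after the GC correction (0.20, adjusted p = 0.0682 by limma) and without SETDB2-up libraries 1 and 2, where Dst was at 0.095 (adjusted p = 0.550 by limma). Klhl24, a ubiquitin ligase adaptor for intermediate filaments, passed narrowly (0.26 ± 0.09 SE, adjusted p = 0.0471 by limma) and was lost without NC-up library 1 (0.23), NC-up library 2 (0.18), SETDB2-up library 1 (0.19) or SETDB2-up library 2 (0.28). It was at 0.06 after the GC correction (adjusted p = 0.750 by limma) and at 0.16 without SETDB2-up libraries 1 and 2 (adjusted p = 0.618 by limma). Kif5a, the motor that carries neurofilaments, gave 0.09 ± 0.05 (SE, adjusted p = 0.263 by limma).

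Of 16 neurofilament kinase and phosphatase genes 0 rose and 5 fell (median -0.05), against 8.71% lower over all genes, and after the GC correction 0 were higher and 1 lower. Cdk5r2, an activator of the kinase Cdk5 that phosphorylates neurofilament tails, read 6007, 6571 and 6719 in NC-up against 4190, 4682 and 4896 in SETDB2-up (-0.49 ± 0.06 SE, adjusted p = 6.69e-05 by limma). Gsk3a, a glycogen synthase kinase, fell by 0.35 ± 0.06 (SE, adjusted p = 0.00116 by limma), a call lost without SETDB2-up libraries 1 and 2 (-0.31, adjusted p = 0.0558 by limma). Both transcripts are rich in GC (63.9% and 59.8%), and after the GC correction neither passed (-0.15 and -0.13, limma adjusted p 0.123 and 0.226). The gene called lower after the correction was Ppp2ca (44.6% GC), at -0.41 (adjusted p = 0.000394 by limma). Before it Ppp2ca was at -0.27 (adjusted p = 0.00640 by limma), and its call was lost in 0 of 18 alternatives.

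The 8 other alpha- and beta-tubulin genes held no call (limma, 0 higher and 0 lower; median 0.06), and 1 higher after the GC correction. Tubb5, the one with the most reads (not divided by length), gave 0.02 ± 0.05 (SE, adjusted p = 0.801 by limma), and Tubb4a, an isotype of myelinating glia and neurons, -0.13 ± 0.06 (SE, adjusted p = 0.129 by limma). Tubb4a passed without SETDB2-up library 3 (-0.18, adjusted p = 0.0159 by limma) and with library numbers as blocks (adjusted p = 0.0370 by limma). It was at 0.02 after the GC correction (adjusted p = 0.857 by limma). Of 12 genes for gamma-, delta- and epsilon-tubulin and the ring complex that starts new microtubules, 2 rose and 0 fell: Tubgcp5 (0.28 ± 0.09 SE, adjusted p = 0.0455 by limma) and Tubgcp4 (0.23 ± 0.06 SE, adjusted p = 0.0179 by limma). After the GC correction (0.11 and 0.12) and without SETDB2-up libraries 1 and 2 (0.31 and 0.24) neither passed, and both calls were lost without NC-up library 1 (0.20 each) or SETDB2-up library 1 (0.24 and 0.23). Tubgcp5 was also lost without NC-up library 3 (0.28) or SETDB2-up library 3 (0.26), and Tubgcp4 without SETDB2-up library 2 (0.23).

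Of 16 tubulin folding genes 1 rose and 2 fell (median 0.12). Cct6a, a subunit of the chaperonin that folds tubulin, read 2653, 2562 and 2694 in NC-up against 3465, 3239 and 3448 in SETDB2-up (0.36 ± 0.06 SE, adjusted p = 0.000427 by limma), and held after the GC correction (0.27, adjusted p = 0.00804 by limma). Tbca, a cofactor for beta-tubulin folding, read 1376, 1334 and 1380 against 1239, 1183 and 731. The low value in SETDB2-up library 3 set the size of its fold change, -0.41 ± 0.13 (SE, adjusted p = 0.0342 by limma), which was -0.17 without that library (adjusted p = 0.0935 by limma). Without SETDB2-up libraries 1 and 2 it was -0.90, and after the GC correction -0.59. The Tbca call was also lost without any 1 of the NC-up libraries (-0.41, -0.43 and -0.40 without libraries 1, 2 and 3).

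Of 26 genes for structural microtubule-associated proteins 7 rose and 2 fell (median 0.08). Map2, which bundles dendritic microtubules, read 3896, 4510 and 4189 against 5645, 5523 and 4613 (0.32 ± 0.07 SE, adjusted p = 0.00559 by limma), and was lost without SETDB2-up library 1 (0.27, adjusted p = 0.0527 by limma) or libraries 1 and 2 (0.14, adjusted p = 0.485 by limma). Ckap5, a polymerase that adds tubulin at growing ends, gave 0.29 ± 0.05 (SE, adjusted p = 0.00134 by limma), a call that held without each library in turn but not after the GC correction (0.15, adjusted p = 0.128 by limma). Map1b, an abundant axonal protein gene, read 135252, 139502 and 128423 against 155344, 174303 and 136230. Its groups overlapped, and it was at 0.02 without SETDB2-up libraries 1 and 2. It did not pass (0.20 ± 0.08 SE, adjusted p = 0.0765 by limma), although it did by edgeR (adjusted p = 0.0427) and without SETDB2-up library 3 (0.29, adjusted p = 0.00108 by limma).

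Of 23 tubulin-modifying enzyme genes 3 rose and 3 fell (median -0.05). Ttll7, which adds glutamate chains to tubulin tails, read 16455, 16942 and 17984 against 22471, 21503 and 20128 (0.32 ± 0.06 SE, adjusted p = 0.00112 by limma). Ttll3, which adds glycine, gave -0.32 ± 0.11 (SE, adjusted p = 0.0440 by limma) and was lost without any 1 of the 6 libraries (adjusted p 0.0579 to 0.178). Of 8 severing enzyme genes 0 rose and 1 fell, Fignl2 (-0.57 ± 0.11 SE, adjusted p = 0.00176 by limma). After the GC correction Ttll7, Ttll3 and Fignl2 did not pass (0.13, -0.15 and -0.24), nor did they without SETDB2-up libraries 1 and 2 (0.23, -0.31 and -0.65).

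**Figure D5:**
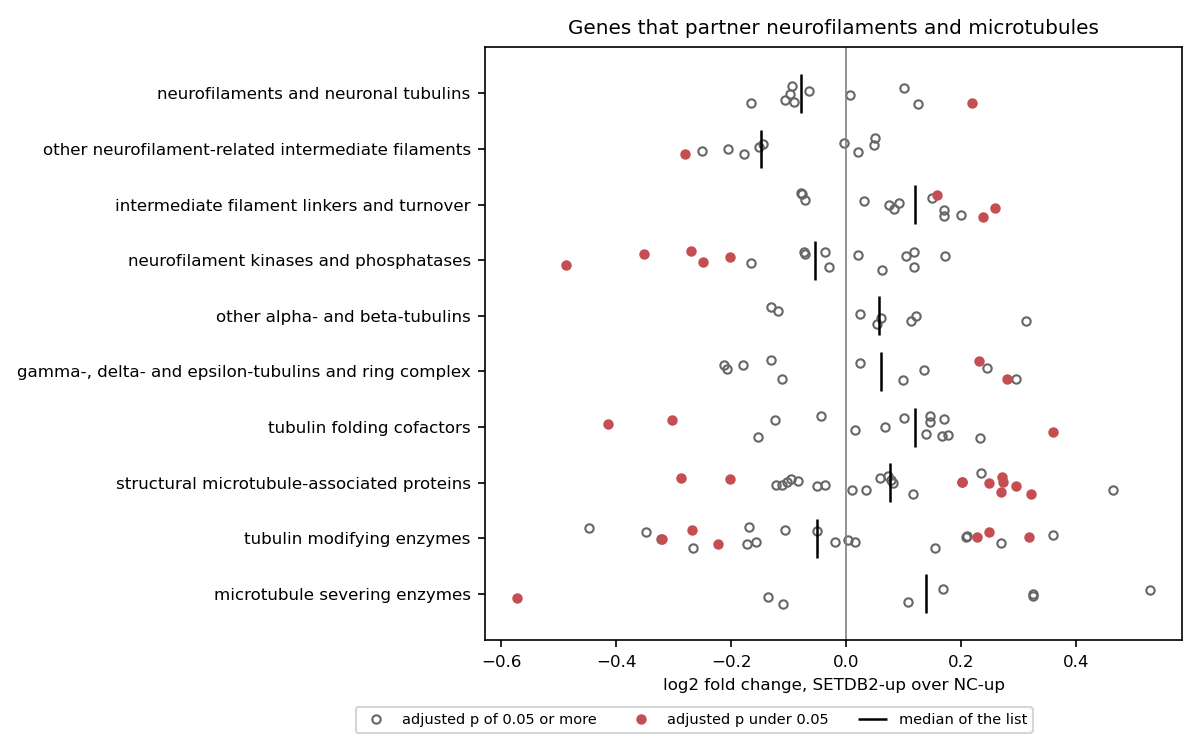
Log2 fold change (SETDB2-up over NC-up) of each tested gene in the filament and tubulin set (top) and in 9 lists of genes that partner them, 1 point per gene with random vertical spread (filled red, limma adjusted p under 0.05; open, 0.05 or more) and the median of each list as a bar. The medians lie between -0.15 and 0.14, and the kinase and phosphatase list has its 5 filled points all below 0, of which 1 was called after the GC correction.

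Over the 6 libraries, the genes whose log2 values most resembled the mean profile of Nefl, Nefm and Nefh included N4bp1 (Pearson r = 0.976), Mtmr12, Smarcc1 and Il17rd (r = 0.963 for the last), out of 12231 genes compared. Pooled over both groups, Nefl was at r = -0.62 with Nefm and -0.76 with Nefh, while Nefm and Nefh were at 0.62. These values include the difference between the groups. Within NC-up, Nefl (122621, 124450 and 129384) and Nefm (91551, 92906 and 96936) both rose from library 1 to library 3. A gene like the mean profile therefore need not be like each subunit. The genes most like Tubb3 were Atp5b, an ATP synthase subunit gene (r = 0.985), Gna14, H2az1, Usp39 and Gprc5b (r = 0.965 for the last). Atp5b read 22390, 22242 and 23353 against 22122, 21909 and 24100, highest in SETDB2-up library 3 as Tubb3 was. With 6 points per gene and so many genes compared, these values describe the libraries, which also share their depth and base composition, and carry no test.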

How the data were processed

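Messenger RNA was enriched on poly-T beads and sequenced from strand-specific libraries, per the labels' protocols. FastQC, HISAT2 and the GRCm38 build are named in the submitters' processing notes, without versions. The sources used here do not give the counter, its strand setting or how it treated reads that match several genes. The deposited values are a normalised signal, in which the authors scaled each library's read counts by a single factor. Whole reads were recovered from 100% of the values (tolerance 0.001 read).

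Genes reaching a value of 1 in 3 or more libraries were tested with limma (3.58.1, R 4.3.3; mean-variance trend) on log2(value + 1). This left out 28 of 16415 genes. Benjamini-Hochberg adjustment was made over all 16387 genes tested, with a threshold of 0.05. EdgeR (4.0.16) and DESeq2 (1.42.0) on recovered reads were alternatives. Shares, ratios and sums were compared by exact two-sided permutation tests of libraries, and cannot go below 0.1. Transcript length and GC content came from GENCODE M21, matched for 15541 genes (94.7%). The GC correction was a loess trend (span 0.3) in each library. Scripts were tested on simulated data.

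The 10 genes, the lists and the tests were chosen with earlier results of these data known. The genes named from the lists are some of those called with the largest fold changes and some of the most abundant that did not pass. The genes of the nociceptor list that passed are all named. The genes most like Nefl, Nefm and Nefh, or like Tubb3, were taken by correlation among genes with a mean of at least 100. No 2 libraries of a group agreed within sampling noise: chi-square of their counts, divided by its degrees of freedom, was 3.97 to 9.93. Some items that these rules select are not reported here.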

Additional observations from a re-analysis of the deposited data

How the results depend on the processing

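Among the 10 genes, 1 call higher and 0 lower were counted. The count higher was 2 with DESeq2, 2 when centred on pan-neuronal genes, and 0 to 1 with 1 library left out; the count lower was 0 to 1 with 1 library left out. Over all genes, the 1263 called higher and 1427 lower became 257 and 519 after the GC correction, 414 to 1528 and 668 to 1807 with 1 library left out, and 146 and 301 without SETDB2-up libraries 1 and 2. Over the partner lists, 16 and 14 became 6 and 3, 6 to 21 and 7 to 17, and 3 and 4 in the same order.

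The library titles repeat the same numbers in both groups, but the labels do not say that a number marks a pair. Correlations of same-numbered libraries, taken on each gene's deviation from its group mean, were 0.038, 0.036 and 0.048. These were under the 0.1 set for pairing, although each library correlated best with its own number. With the replicate number as a block, Tuba1b and Nefl were called higher and Nefm lower, 2 and 1 of the 10 genes. In that fit 1695 higher and 1923 lower were called of 16387 genes, and 29 and 22 of the partner genes. With block and GC correction together, 4 of the 10 were called higher: Tuba1b (0.33), Prph (0.18), Tubb3 (0.18) and Tuba1a (0.16). The limma adjusted p was 0.000205 for Prph, 0.000206 for Tubb3 and 0.00124 for Tuba1a. That fit called 681 higher and 921 lower of 15513 genes, and 19 partner genes higher and 6 lower. The log2 fold changes of that fit equal those after the GC correction alone.

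Directions of small differences turned. After the GC correction Nefh was at 0.088, Prph at 0.18, Tubb2a at 0.013, Tubb4a at 0.023, the Nefl to Nefh ratio at -0.017 and the Tubb2a to Tubb2b ratio at 0.11. Without SETDB2-up libraries 1 and 2, Prph was at 0.094 and Tubb2a at 0.0045. With 1 library left out, Tubb3 ran from -0.055 to 0.037 and Tubb5 from -0.00094 to 0.037, the share of Tubb3 from -0.041 to 0.59 points, and, relative to pan-neuronal genes, Prph from -0.12 to 0.0088 and Tubb3 from -0.032 to 0.067. The Nefm to Nefh ratio ran from -0.071 to 0.042 and the Tubb2a to Tubb2b ratio from -0.029 to 0.028. The cause of these turns was not tested.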
